A study of Homo sapiens with 12 samples.

Results

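Long intergenic non-coding RNAs (lincRNAs) were examined in HCT116 cells, a human colorectal carcinoma line, before and after acute loss of SDS22. The members were selected on measured values: rows of the count table typed as lincRNA with a summed raw count of 500 or more over the 12 libraries, leaving out the small nucleolar RNA hosts named SNHG or GAS5. Of 7514 lincRNA rows, 2579 had at least 1 count and 115 reached the minimum. Removing 5 SNHG rows (SNHG8, SNHG9, SNHG15, SNHG19 and SNHG25) left 110 members of the 58233 rows of the table. All 110 passed the expression filter, as did 16657 rows in total. LINC02081 and LINC00869, with 507 and 514 counts, lay just inside the threshold, and AC021218.2, RP11-114H23.2 and RP11-783K16.13, each with 499 counts, lay just outside it.

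SDS22, encoded by PPP1R7, binds protein phosphatase-1 (PP1), a phosphatase that acts on many substrates as holoenzymes with different regulatory subunits. The 4 groups, each of 3 libraries, were parental HCT116 cells untreated, parental cells given doxycycline (2 µg/ml) and the auxin indole-3-acetic acid (500 µM) for 48 h (Dox/IAA), SDS22-degron cells untreated, and SDS22-degron cells given the same Dox/IAA. All groups carried the rice F-box protein OsTIR1 at both AAVS1 alleles under a doxycycline-inducible promoter. In the SDS22-degron cells, endogenous SDS22 was also fused at its C terminus to mAID-mClover by CRISPR/Cas9, so that auxin triggers its degradation. The degron line was grown from isolated colonies and carried neomycin and hygromycin resistance cassettes, so a difference between the lines cannot be told apart from a difference between clones. The degron acts on the protein, and PPP1R7 transcript ran from 40.1 to 51.2 CPM (counts scaled to library size, with sizes adjusted by the trimmed mean of M values) over the 12 libraries. It therefore does not check the labels. The libraries held 12133915 to 14657508 counts. The epithelial markers EPCAM, KRT8, KRT18, KRT19, CDH1 and CDX2 were expressed, CDX1 was listed at 0 in every library, and VIL1 did not exceed 0.152 CPM. Leukocyte, fibroblast and endothelial markers stayed under 2 CPM, apart from COL1A1 at 9.88 to 31.8 CPM. The second library of each treated group stood apart from its replicates for several members. Without both of these libraries, an alternative chosen after seeing the data, 22 members were higher and 11 lower between the treated lines, against 17.2% and 18.9% of all tested rows in that fit (29 and 11 members with these libraries). On Dox/IAA in degron cells 20 rose and 38 fell, against 25.1% and 24% (24 and 36 members with these libraries).

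LincRNAs are transcribed by RNA polymerase II, are usually capped and spliced, and have no long open reading frame. Some act as scaffolds or decoys for proteins, some host microRNAs in their introns or exons, and for many only the act of transcription near another gene is known. NORAD is a cytoplasmic lincRNA that is induced by DNA damage. NEAT1 builds the nuclear bodies called paraspeckles, and MALAT1 resides in nuclear speckles. The library preparation selected polyadenylated RNA, so RNAs without a poly(A) tail were measured poorly.

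The microRNA hosts are shown by the mature products they carry. The searched hairpins from RefSeq (GRCh38.p14) lay in the span of MIR222HG, MIR34AHG, MIR4435-2HG, FTX, LINC00969 and AC058791.1. This is not the full set of hosts, as MIR22HG, a host by name, had no searched hairpin in its span. A host's level is the polyadenylated host RNA and not the mature microRNA, which these libraries do not measure. The seed (bases 2 to 8) is in capitals, and miR-221-3p and miR-222-3p share it.
hsa-miR-221-3p (MIR222HG): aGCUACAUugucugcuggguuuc
hsa-miR-222-3p (MIR222HG): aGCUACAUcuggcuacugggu
hsa-miR-34a-5p (MIR34AHG): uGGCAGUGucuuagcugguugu
hsa-miR-29b-3p (AC058791.1): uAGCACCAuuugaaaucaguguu
hsa-miR-4435 (MIR4435-2HG): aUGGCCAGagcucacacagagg

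The start regions of LINC01468 and NORAD, the members that differed most between the lines by fold and by abundance, are shown side by side because their base composition differs. The windows run from 250 bases before to 50 bases after the RefSeq start (GRCh38.p14), with each CG in capitals. LINC01468, which RefSeq calls LNCAROD (chr10:52470484-52470783, minus strand), held 1 CG in a window of 36% GC. NORAD (chr20:36050911-36051210, minus strand) held 23 in a window of 63% GC. Over the 63 member windows found, the median ratio of observed to expected CG was 0.779, against 0.579 over all 35116 windows.
LINC01468 window: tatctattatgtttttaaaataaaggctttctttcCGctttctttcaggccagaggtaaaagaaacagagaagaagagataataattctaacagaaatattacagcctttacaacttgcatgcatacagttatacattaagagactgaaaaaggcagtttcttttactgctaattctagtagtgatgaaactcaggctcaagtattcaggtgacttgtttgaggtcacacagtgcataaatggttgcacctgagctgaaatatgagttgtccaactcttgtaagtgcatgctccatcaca
NORAD window: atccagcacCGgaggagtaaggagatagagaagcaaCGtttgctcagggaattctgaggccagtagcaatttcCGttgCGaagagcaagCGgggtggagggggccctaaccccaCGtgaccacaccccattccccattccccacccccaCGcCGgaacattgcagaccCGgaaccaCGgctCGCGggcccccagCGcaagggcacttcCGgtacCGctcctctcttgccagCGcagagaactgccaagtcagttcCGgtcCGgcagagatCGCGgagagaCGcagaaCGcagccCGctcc

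The members were short and low. Their median length was 3065.5 bases and their median level 6.68 CPM, against 4066 bases and 22.6 CPM over all tested rows. Per kilobase the medians were 2.47 and 5.91 CPM. Mean levels ran from 3.28 to 406 CPM, 35 members reached 10 CPM, and the 10 with most counts held 54.0% of all member counts. NORAD (76.1 CPM per kb) and RP11-297P16.4 (64.6 CPM per kb) were highest per length, followed by RP11-147L13.11 (18.7), AC093323.3 (14.7) and ELFN1-AS1 (14). In structure, 35 members had a single exon, 48 carried clone-based names and 50 overlapped another row with counts, 20 of them a protein-coding row. The start of 25 members lay within 1 kb of the nearest protein-coding gene in a divergent arrangement. Current RefSeq names matched 78 members, all but EBLN3P (a transcribed pseudogene) typed as long non-coding. Among them LINC02001 is now named SNHG30, the name of a small nucleolar RNA host, so the rule kept it by its older symbol.

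Between the lines after Dox/IAA, in which SDS22 is depleted only in the degron cells, 29 of 110 members (26.4%) were higher and 11 (10.0%) lower in SDS22-degron cells (adjusted p under 0.05, edgeR quasi-likelihood test). The background over all 16657 tested rows was 21.8% higher and 23.1% lower. Over 2-fold, 5 members (4.55%; background 3.21%) were higher and 6 (5.45%; background 3.26%) lower. Between the untreated lines, which differ by the tag and by clone, 28 members (25.5%) were higher and 8 (7.27%) lower, against 13.2% and 15% of all tested rows. The lower count ran from 7 to 11 when 1 library was left out. Without both second treated libraries 31 (28.2%) were higher and 12 (10.9%) lower, against 14.5% and 16.2% of all tested rows in that fit. The median log2 difference of the members was 0.13 after treatment and 0.15 without it, against -0.01 and 0.00 over all tested rows. For 24 members (21.8%) both comparisons, which share no library, passed the test in the same direction, against 18.3% of all tested rows. The members' share of all counts was 0.150% to 0.168% in parental libraries, 0.191% to 0.201% in untreated degron libraries and 0.201% to 0.241% in treated degron libraries. The mitochondrial share of counts moved with the groups as well, from 3.11% to 3.45% in untreated parental, 3.80% to 4.56% in treated parental, 4.65% to 5.26% in untreated degron and 5.26% to 7.09% in treated degron libraries, and its part in the members' values was not tested.

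NORAD (chr20:36045622-36050960, minus strand, GRCh38) was the most abundant member in every library and took 22.3% of all member counts. It stood at 264, 233 and 227 CPM in untreated parental cells, 299.7, 248 and 277 CPM in treated parental cells, 484, 513 and 438 CPM in untreated degron cells and 606, 635 and 651 CPM in treated degron cells. Every degron library lay above every parental library, and the treated degron libraries lay above the untreated ones. The log2 difference between the lines was 0.99 (SE 0.08, adjusted p = 8.27e-08) untreated and 1.20 (SE 0.08, adjusted p = 4.31e-09) treated. Dox/IAA raised it by 0.40 (SE 0.08, adjusted p = 0.000391) in degron cells. In parental cells the log2 change was 0.19 (SE 0.08, adjusted p = 0.0861), and the difference between these responses, 0.21 (SE 0.11, adjusted p = 0.23), did not pass the test. Without NORAD, the members' share was 0.128% to 0.143% in parental, 0.147% to 0.150% in untreated degron and 0.138% to 0.176% in treated degron libraries. These ranges overlap between the parental and the treated degron libraries.

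LINC01468 (chr10:52450874-52470533, minus strand), the transcript now called LNCAROD for its described effect on DKK1, had the largest difference between the lines of any member. Its level was 0.844, 0.782 and 0.906 CPM in untreated and 0.3, 0.395 and 0.551 CPM in treated parental cells. In degron cells it was 19.4, 20.8 and 21.9 CPM untreated and 8.77, 8.98 and 10.5 CPM treated. The fold between the lines was 24.3 untreated and 22.2 treated, or 4.60 (SE 0.17, adjusted p = 1.39e-12) and 4.47 (SE 0.21, adjusted p = 5.95e-11) on the log2 scale. Dox/IAA lowered it by a log2 change of -1.14 in degron cells (adjusted p = 1.53e-07). It had 47 counts over all 6 parental libraries and entered the set through the degron libraries. DKK1, a secreted WNT inhibitor and its nearest protein-coding gene at 132832 bp, also differed, by a log2 value of 2.3 (adjusted p = 8.85e-12) untreated and 1.64 (adjusted p = 6.53e-10) treated. LINC00326 (chr6:133088080-133106578, plus strand) followed, at 1.65, 0.79 and 1.89 CPM in treated parental and 5.72, 7.2 and 5.11 CPM in treated degron cells, without overlap. Its log2 difference was 2.05 (SE 0.25, adjusted p = 3.3e-06) treated and 1.65 (SE 0.21, adjusted p = 9.87e-06) untreated. It had 169 counts over the 6 parental libraries of 800 in all and likewise entered the set through the degron libraries.

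**Figure D1:**
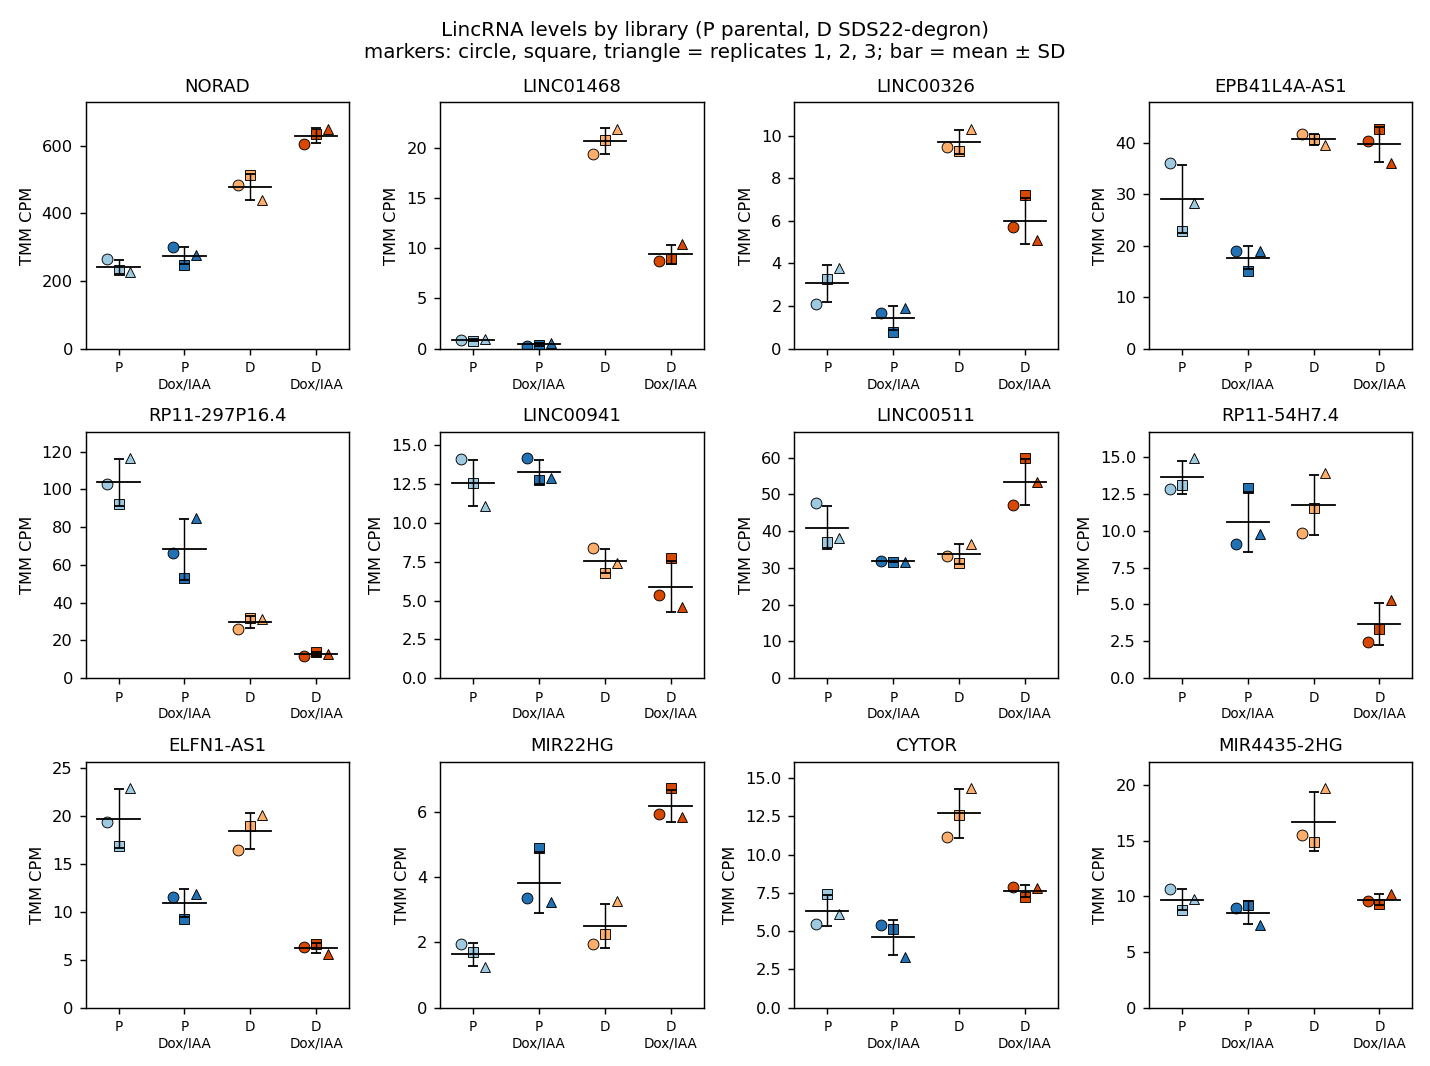
Levels of 12 lincRNAs in each library, in TMM-scaled CPM on linear axes from 0, for parental (P) and SDS22-degron (D) cells with and without Dox/IAA. Markers are the 3 replicates and bars the mean ± SD. NORAD lies at 438 to 651 CPM in all degron libraries against 227 to 299.7 CPM in parental ones, while LINC00511 lies at 47.1 to 59.8 CPM in treated degron libraries and at 31.4 to 47.7 CPM in the others.

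Other members higher in treated degron cells were AC058791.1, whose span holds the hairpin of miR-29b-1, at 1.22 (SE 0.22, adjusted p = 0.000223), and RP11-147L13.15 at 0.99 (SE 0.15, adjusted p = 2.62e-05). EPB41L4A-AS1, antisense to EPB41L4A, stood at 19, 15.2 and 18.9 CPM in treated parental and 40.3, 42.7 and 36.1 CPM in treated degron cells, a log2 difference of 1.16 (SE 0.13, adjusted p = 1.14e-06). The untreated lines differed by 0.49 (SE 0.12, adjusted p = 0.00624). On Dox/IAA it fell in parental cells, with a log2 change of -0.71 (SE 0.13, adjusted p = 0.000598), and its log2 change in degron cells was -0.04, an interaction of 0.68 (SE 0.18, adjusted p = 0.0168). This interaction did not pass without the first untreated parental library (0.48, adjusted p = 0.0509), with the GC correction (0.49, adjusted p = 0.0569) or without both second treated libraries (0.52, adjusted p = 0.0921). EPB41L4A itself differed by 0.98 (adjusted p = 4.94e-06) between the treated lines, and how the counting treated strand is not given in the sources used here, so reads of an overlapping pair cannot be told apart with certainty.

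The most negative difference between the treated lines was that of RP11-297P16.4 (chr4:103550927-103559127, minus strand). It was 103, 92 and 116 CPM in untreated parental, 66.4, 53.1 and 85 CPM in treated parental, 26.1, 32 and 31.3 CPM in untreated degron and 11.7, 14 and 13 CPM in treated degron cells. The groups did not overlap. It was lower in the degron line with and without Dox/IAA, and lower after Dox/IAA in each line. The log2 difference was -2.40 (SE 0.15, adjusted p = 1.53e-09) between the treated lines and -1.80 (SE 0.13, adjusted p = 2.61e-08) between the untreated lines. For Dox/IAA it was -1.21 (SE 0.16, adjusted p = 3.74e-06) in degron cells and -0.60 (SE 0.13, adjusted p = 0.00142) in parental cells. KB-1732A1.1 followed at -2.05 (SE 0.23, adjusted p = 1.48e-06), with 148 counts over the 6 degron libraries. CTB-193M12.5, LINC01270 and LINC00941 were lower as well, with log2 differences of -1.46, -1.24 and -1.17. CTB-193M12.5 lies inside NDE1 on its strand, and NDE1, a dynein regulator, differed by -1.31 (adjusted p = 4.33e-09). It sits on chromosome 16, where the median over 726 tested genes was -0.31 treated and -0.30 untreated. FLJ20021, which starts divergently from the calcineurin subunit gene PPP3CA, was lower at a log2 difference of -0.91 (PPP3CA -0.84 (adjusted p = 4.51e-07)).

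Dox/IAA in SDS22-degron cells raised 24 members (21.8%) and lowered 36 (32.7%), against 26.0% and 25.5% of all tested rows. Over 2-fold, 3 members (2.73%; background 3.73%) rose and 7 (6.36%; background 3.93%) fell. In parental cells, which lack the degron, Dox/IAA raised 11 members (10.0%) and lowered 19 (17.3%), against a background of 15.9% and 15.7%. This split depended on the scaling and on single libraries. With library size alone 15 rose and 13 fell, and with a correction for GC content 15 rose and 12 fell. The median parental change over all tested rows moved as well, from 0.002 to 0.060 and 0.057 (log2) in these fits. The shares of all tested rows called in them are not given here, so this dependence is not shown to be particular to the members. Without untreated parental replicate 3, 12 members fell. With the replicate number as a block, both counts were above those of the main fit. The median log2 change of the members was -0.09 in degron and -0.05 in parental cells. The degron median was -0.19 without treated degron replicate 2 and -0.05 without treated degron replicate 1, and the parental one was -0.08 without untreated parental replicate 2 and -0.02 without untreated parental replicate 3. In both lines 21 members (19.1%) changed in the same direction, 10 upwards and 11 downwards, against 23.4% of all tested rows. Over all 110 members the sign was shared by 89, with a Pearson r of 0.678, against 0.645 over all tested rows. All points rest on the same 12 libraries, and the value is a description. Coding lists were read in the same libraries. All 15 S phase and mitosis mRNAs were lower on Dox/IAA in degron cells and 5 in parental cells, and for 15 the interaction was lower. Of 19 p53 target mRNAs tested 15 were higher and 1 lower in degron cells, 1 was higher and 2 lower in parental cells, and for 9 the interaction was higher. Of 12 paraspeckle protein mRNAs 11 were lower in degron and 6 in parental cells, with a lower interaction for 4, and of 21 nuclear exosome mRNAs tested 14 and 10 were lower, with a lower interaction for 6.

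MIR22HG (chr17:1711493-1717174, minus strand), the host of miR-22, rose most in both lines. It moved from 1.94, 1.72 and 1.24 CPM to 3.37, 4.9 and 3.23 CPM in parental cells and from 1.97, 2.27 and 3.26 CPM to 5.95, 6.74 and 5.85 CPM in degron cells, with no overlap in either line. The log2 changes were 1.22 (SE 0.25, adjusted p = 0.00108) and 1.31 (SE 0.21, adjusted p = 3.72e-05), with no difference between them that passed the test (0.08, adjusted p = 0.903). It had 163 counts over the 6 untreated libraries of 547 in all and entered the set through the treated ones. Its divergent neighbour WDR81 changed by -0.08 (adjusted p = 0.554) in degron cells. PSMG3-AS1, divergent from the proteasome assembly chaperone gene PSMG3, rose by 1.01 in degron cells (adjusted p = 2.21e-05), while PSMG3 changed by -0.61 (adjusted p = 2.23e-06). In parental cells the log2 change of PSMG3-AS1 was 0.43 (SE 0.18, adjusted p = 0.0717), and the interaction had an adjusted p of 0.116. AP001258.4 (FAM111A-DT) rose in both lines, by 0.81 in degron and 0.58 in parental cells (adjusted p = 0.0224). LINC02081, now SCAT1, rose by 0.84 in degron and 0.90 in parental cells, and it had 182 counts over the 6 untreated libraries of 507 in all.

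ELFN1-AS1 (chr7:1738630-1742291, minus strand), antisense to ELFN1, fell in both lines. It went from 19.3, 16.8 and 22.9 CPM to 11.5, 9.24 and 11.9 CPM in parental and from 16.4, 18.9 and 20.04 CPM to 6.33, 6.66 and 5.6 CPM in degron cells, a log2 change of -0.85 (SE 0.13, adjusted p = 0.000108) and -1.57 (SE 0.14, adjusted p = 6.24e-08). The fall was larger in degron cells, with an interaction of -0.72 (SE 0.20, adjusted p = 0.0187). RP11-54H7.4 (LINC03061, chr13:109269634-109273838, plus strand) dropped from 9.84, 11.6 and 13.9 CPM to 2.44, 3.33 and 5.27 CPM in degron cells (-1.68 (SE 0.21, adjusted p = 2.67e-06)) and stood at 12.8, 13.1 and 14.9 CPM and 9.07, 12.9 and 9.75 CPM in parental cells. RP5-984P4.6, LINC02001, AL162759.1 and LINC00326 also fell in degron cells, with log2 changes of -1.48, -1.05, -0.98 and -0.69. In parental cells their changes were -0.86 (adjusted p = 0.0425), -0.35 (adjusted p = 0.153), -0.90 (adjusted p = 0.00309) and -1.08 (adjusted p = 0.00739), and the interaction passed the test for none of them. The parental call for RP5-984P4.6 was lost in 6 of the 12 fits that left out 1 library each (adjusted p up to 0.183). CCAT1, described in colorectal cancer, fell with a log2 change of -0.57 (SE 0.23, adjusted p = 0.0449) there.

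The interaction asks whether the response to Dox/IAA differed between the lines. It passed the test for 5 members (4.55%) with a higher and 6 (5.45%) with a lower response in degron cells, against 6.03% and 8.35% of all tested rows. Without the second treated libraries 2 of these 5 and 3 of these 6 calls were kept. With the GC correction 3 members had a higher and 12 a lower response, and without the first untreated parental library 2 and 6. The GC correction also took the interaction median of all tested rows from -0.002 to -0.17. The shares of all tested rows called in these fits are not given here. Leaving out any of 6 libraries took the count with a higher response to 2 or 3: untreated parental replicate 1 or 3, treated parental replicate 1, untreated degron replicate 2 and treated degron replicate 1 or 2. LINC00511 (chr17:72323123-72640472, minus strand), a long multi-exon transcript described in several cancers, had the smallest p. It was 47.7, 37 and 38.1 CPM and 31.9, 31.6 and 31.7 CPM in untreated and treated parental cells, and 33.2, 31.4 and 36.6 CPM and 47.1, 59.8 and 53.3 CPM in degron cells. It fell in parental cells (-0.37 (SE 0.10, adjusted p = 0.012)) and rose in degron cells (0.66 (SE 0.10, adjusted p = 2.64e-05)), an interaction of 1.03 (SE 0.15, adjusted p = 0.000156). SLC39A11, a zinc transporter gene 5477 bp away, rose in both lines, by 0.63 (adjusted p = 5.79e-07) in degron and 0.23 (adjusted p = 0.0195) in parental cells. RP11-284F21.9, now BCAN-AS1, was 7.44, 5.16 and 7.82 CPM untreated and 13.5, 13.9 and 14.2 CPM treated in degron cells and 8.95, 6.25 and 8.73 CPM and 9.15, 7.03 and 6.61 CPM in parental cells, with an interaction of 1.10 (SE 0.24, adjusted p = 0.00439). In the other direction, RAB30-AS1, which starts 143 bp from RAB30 in a divergent arrangement, was 4.67, 3.51 and 4.4 CPM and 2.29, 1.47 and 2.39 CPM in degron cells (interaction -1.36 (SE 0.33, adjusted p = 0.00997)). RAB30 moved the other way in degron cells, by 0.59 (adjusted p = 0.0032). The RAB30-AS1 interaction was -1.68 without untreated parental replicate 2 and -1.15 without untreated parental replicate 3, and the call was kept in both fits. RP11-54H7.4 had an interaction of -1.32 (SE 0.28, adjusted p = 0.00375).

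PVT1, transcribed 53099 bp from MYC, was 49.8, 46.9 and 53.8 CPM and 31.9, 32.4 and 33.5 CPM in untreated and treated parental cells and 52.9, 53.5 and 57 CPM and 46.4, 43.7 and 43.2 CPM in degron cells. It fell in both lines, with log2 changes of -0.62 in parental and -0.29 in degron cells, with an interaction of 0.33 (SE 0.10, adjusted p = 0.0396). This interaction did not pass in 10 of the 12 fits that left out 1 library each (adjusted p up to 0.108), with library size alone (0.0536), without the filter on low counts (0.109), with the GC correction (0.126), or without the second treated libraries (0.0865). MYC fell with log2 changes of -1.18 (adjusted p = 2.66e-06) in parental and -1.30 (adjusted p = 1.37e-07) in degron cells. The cancer-linked list held 6 members: PVT1, LINC01234, LINC00511, LINC00467, CYTOR and CCAT1. Between the treated lines PVT1, LINC00511 and CYTOR were higher, CCAT1 was lower, and LINC01234 (-0.13) and LINC00467 (-0.19) did not pass the test.

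CYTOR and MIR4435-2HG are paralogs on chromosome 2 that share sequence. Their RefSeq windows from 250 bases before to 50 after the start (GRCh38.p14) are shown because 241 bases run identically through both. The capitals mark TGANTCA, the AP-1 motif, searched on both strands and found in 7.71% of 35116 windows. CYTOR lies at chr2:87455177-87455476, plus strand, and MIR4435-2HG at chr2:111495112-111495411, minus strand. The identical run begins at base 1 of the CYTOR window and base 60 of the MIR4435-2HG window, and it reaches the end of the latter. Its length is therefore set by the window edges. The second marked match of CYTOR lies past the stretch that the MIR4435-2HG window covers, so the numbers of matches cannot be compared. A match is a description of the letters only.
CYTOR window: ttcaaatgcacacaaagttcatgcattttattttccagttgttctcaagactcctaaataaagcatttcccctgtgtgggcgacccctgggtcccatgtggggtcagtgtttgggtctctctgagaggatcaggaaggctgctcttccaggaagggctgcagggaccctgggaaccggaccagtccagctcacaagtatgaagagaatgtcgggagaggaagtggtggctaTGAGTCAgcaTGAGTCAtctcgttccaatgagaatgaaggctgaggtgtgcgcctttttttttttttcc
MIR4435-2HG window: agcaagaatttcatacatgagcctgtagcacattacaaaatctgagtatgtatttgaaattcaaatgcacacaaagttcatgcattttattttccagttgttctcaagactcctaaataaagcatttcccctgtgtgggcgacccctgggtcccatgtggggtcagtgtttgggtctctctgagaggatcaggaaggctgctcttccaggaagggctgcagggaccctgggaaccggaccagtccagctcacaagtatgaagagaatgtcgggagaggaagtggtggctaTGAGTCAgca

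Of all 75-base words, the read length, in the transcripts of CYTOR, 45.0% also occur in those of MIR4435-2HG, so counts of both are uncertain where reads were split between them. CYTOR was 5.49, 7.43 and 6.1 CPM and 5.4, 5.14 and 3.3 CPM in untreated and treated parental cells and 11.2, 12.6 and 14.3 CPM and 7.86, 7.2 and 7.82 CPM in degron cells. Every untreated degron library lay above every other. The log2 difference between the untreated lines was 1.00 (SE 0.16, adjusted p = 0.000112), and Dox/IAA changed it by -0.73 (SE 0.15, adjusted p = 0.000548) in degron cells. MIR4435-2HG went the same way, at 15.5, 14.9 and 19.7 CPM untreated and 9.61, 9.29 and 10.2 CPM treated in degron cells, against 10.6, 8.76 and 9.72 CPM and 9, 9.24 and 7.39 CPM in parental cells. Its interaction was -0.60 (SE 0.19, adjusted p = 0.0408), while that of CYTOR, -0.28, had an adjusted p of 0.485. The call for MIR4435-2HG did not pass in 7 of the 12 fits that left out 1 library each (adjusted p up to 0.107), under DESeq2 (0.0542) or without the second treated libraries (0.158). FTX (minus strand) and JPX (plus strand) share words for another reason, as they overlap on chromosome X. Words were matched on both strands, and 25.3% of those of FTX and 45.1% of those of JPX were shared. Whether reads of this pair were kept apart depends on the strand setting, which is not given.

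For NEAT1, MALAT1 and several microRNA host members, the second library of each treated group stood apart. NORAD, the most abundant member, did not have its highest treated value there in either line. NEAT1 was 80.8, 166 and 108 CPM in treated parental and 93.6, 305 and 154 CPM in treated degron cells, with the second value highest in each. Untreated cells held 118, 111 and 92.4 CPM and 151, 143 and 128 CPM. No comparison of NEAT1 passed the test, the log2 difference between the treated lines being 0.64 (SE 0.28, adjusted p = 0.0763). MALAT1 was 76.3, 129 and 48.4 CPM and 59.9, 128 and 74.4 CPM in the treated groups, and it passed only between the untreated lines (0.95 (SE 0.27, adjusted p = 0.0123)). MIR222HG (4.05, 7.98 and 5.59 CPM in treated parental, 3.66, 9.06 and 4.37 CPM in treated degron cells) and RP5-984P4.6 (2.4, 5.06 and 1.97 CPM and 1.14, 3.17 and 1.4 CPM) also had their highest treated values there. MIR34AHG, a p53-linked host, was 5.39, 5.57 and 5.69 CPM in untreated and 3.58, 9.76 and 4.78 CPM in treated degron cells, and it was higher in untreated degron than untreated parental cells (1.06 (SE 0.31, adjusted p = 0.015)), a call that was lost without untreated parental replicate 3 (adjusted p = 0.0716). In treated degron cells 58 of 110 members were highest in the second library, 8 of them by over 1.5 times both others. In treated parental cells 40 were, and 6 by over 1.5 times. The first untreated parental library was highest in its group for 46 members, 5 of them by over 1.5 times both others. The second treated degron library also held the largest share of member counts, 0.241%. The same counts of highest libraries were not made over all tested rows, so they are not shown to be particular to lincRNAs. Over rows of the whole table with enough counts, the chi-square per degree of freedom measured how far 2 libraries differ. With the second treated parental library it was 9.73 and 8.54, against 3.25 between the others. In treated degron cells it was 6.3 and 5.38, against 7.24. Whether cell state, RNA handling or another feature of these libraries has a part was not tested.

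**Figure D2:**
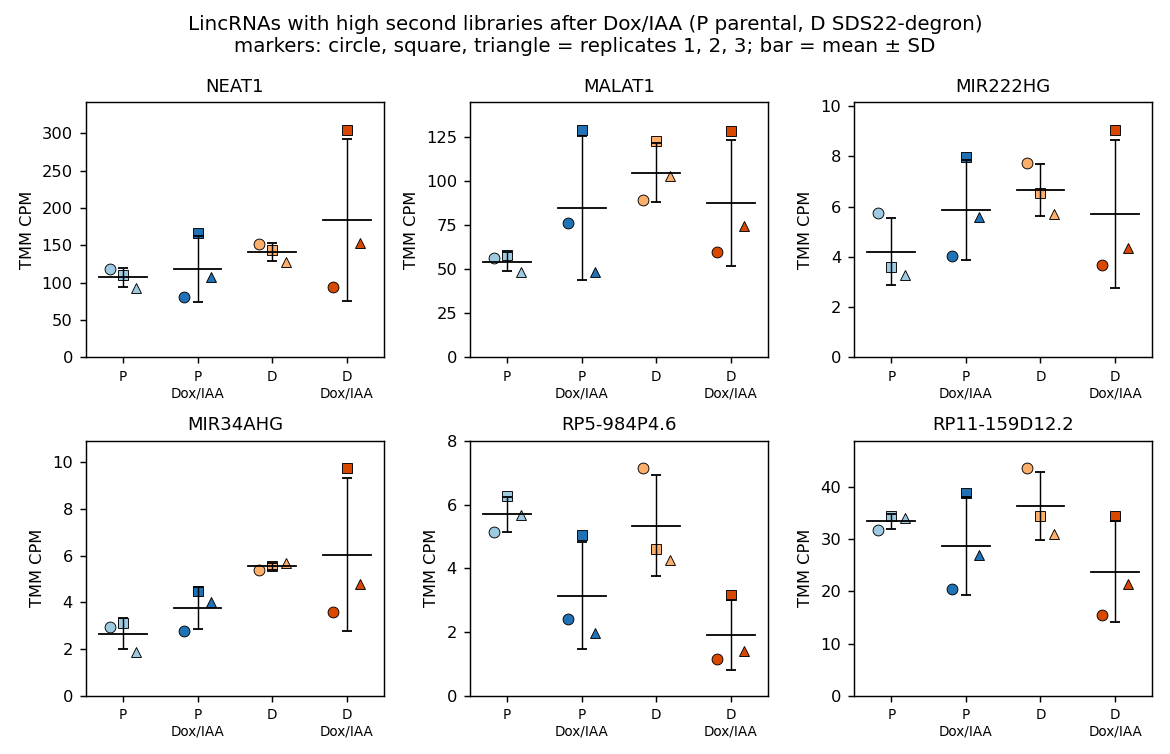
Levels of 6 lincRNAs by library in TMM-scaled CPM, on linear axes from 0, for parental (P) and SDS22-degron (D) cells; squares are the second replicates, bars the mean ± SD. NEAT1 reaches 305 CPM in the second treated degron library against 93.6 and 154 CPM in the others.

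The nearest protein-coding gene gives another view of the members. It was tested for 89 members and lay within 1 kb of 36. Over these 89, the member's log2 difference and its neighbour's had a Pearson r of 0.433 between the treated lines (Spearman rho 0.218), and 0.56 and 0.266 between the untreated lines. For Dox/IAA in degron cells r was 0.14 and rho 0.144. The pairs share libraries, chromosomal position and, for overlapping genes, reads, so these are descriptions. Of 30 called members with a tested neighbour between the treated lines, the neighbour was called in the same direction for 12, in the opposite direction for 7 and not at all for 11. For Dox/IAA in degron cells the counts were 18, 12 and 19 of 49. Calls were frequent over all tested rows as well. Between the treated lines 21.8% were higher and 23.1% lower, and on Dox/IAA in degron cells 26.0% and 25.5%. Whether neighbours of called members were called more often than other rows was not tested. TEAD4 lies on the same strand as the single-exon RP11-253E3.3 and ends 764 bp before it begins. It changed with it on Dox/IAA in degron cells (-0.52 (adjusted p = 0.000268) against -0.86 for the lincRNA). Whether reads past the end of TEAD4 were counted in this row was not tested. PSMG3-AS1 and RAB30-AS1, above, moved against their neighbours.

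**Figure D3:**
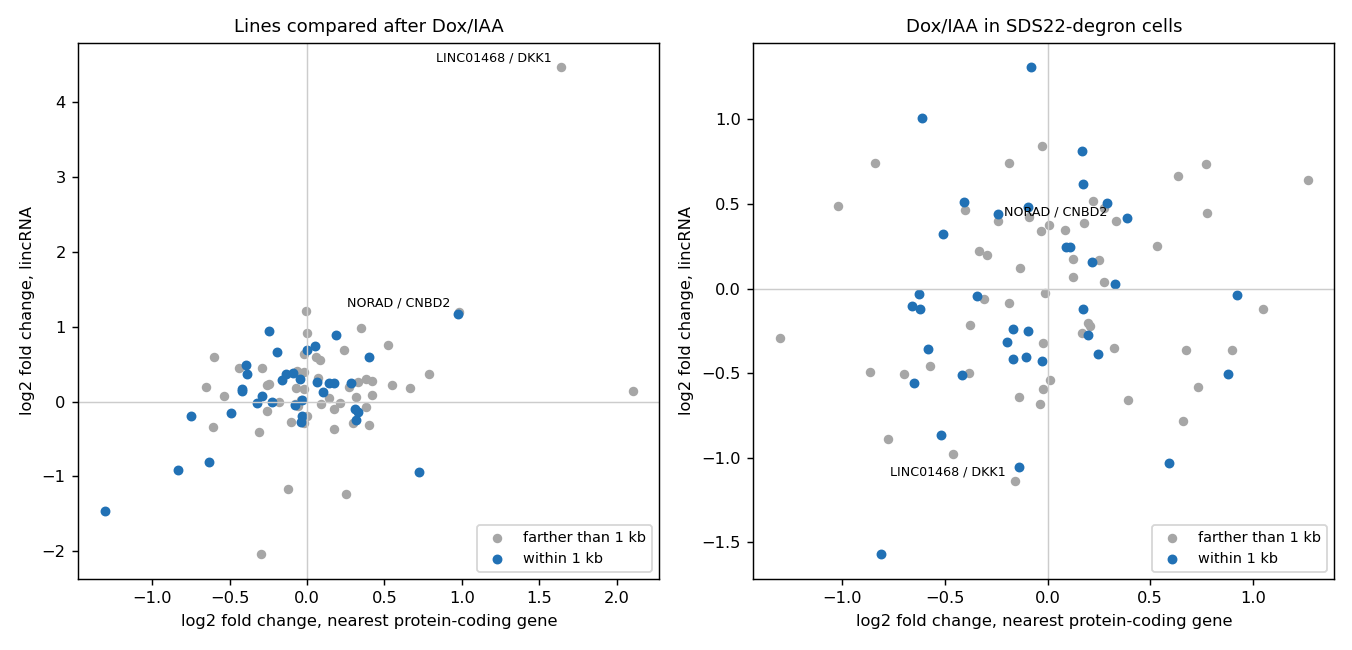
Log2 fold change of each lincRNA (y axis) against that of its nearest protein-coding gene (x axis), between the treated lines (left) and for Dox/IAA in SDS22-degron cells (right), for 89 members. Blue points lie within 1 kb of the neighbour (36 members). LINC01468 and DKK1 stand at 4.47 and 1.64 in the left panel.

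Of the 110 members, 79 (71.8%) were called in at least 1 of the 5 comparisons, against 72.6% of all tested rows, and 31 in none, among them NEAT1, LINC01234 and LINC00467. The precision behind a missed call was lower for members than for other genes: the median standard error of a log2 difference was 0.165 between the treated lines, against 0.11 over all tested rows. A total of 17 members had fewer than 250 counts in 1 side of the design, 10 of them in the 6 parental libraries, 1 in the 6 degron, 4 in the 6 untreated and 7 in the 6 treated ones (some in more than 1 side), and these entered the set mainly through the other side. Among those named above are LINC01468, LINC00326, AC058791.1, MIR34AHG and LINC02081 with low counts in parental libraries, and RP5-984P4.6, AL162759.1 and RAB30-AS1 with low counts in treated ones.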

How the data were processed

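Polyadenylated RNA from 12 libraries, triplicate samples for each of 4 groups, was sequenced as single 75-base reads. The authors deposited raw counts per gene on GRCh38. Per the labels, the processing used cutadapt 1.15, Bowtie2 2.3.3.1, STAR 2.5.2b, SAMtools 1.5 and featureCounts 1.5.3. The annotation release, the strand setting and the treatment of multiply mapped reads are not given in the sources used here. The GC percent of each gene, used for the GC correction, is that deposited by the authors. Here the deposited counts were filtered with filterByExpr (minimum count 10), scaled with TMM and fitted in 1 model with 4 group means by the quasi-likelihood test of edgeR 4.0.16 in R 4.3.3, 2-sided, with Benjamini-Hochberg adjustment over 16657 rows. A call is an adjusted p under 0.05. Library totals were 12133915 to 14657508 counts, and scaling factors 0.971 to 1.03. Replicates of a group differed by more than sampling noise. The fit was tested on simulated data. The members and lists were chosen with earlier results of these data known. Named members are the extremes of each comparison among called members without overlap of libraries and at least 2 CPM, the 5 highest per kilobase, the members of fixed lists and those at the threshold. Members highest in the second treated libraries, and pairs that share sequence, were named after their values were seen. XIST was left out, and 1 gene list is not reported here. DESeq2 1.42.0, the likelihood ratio test of edgeR, other scalings and filters, a GC correction, a replicate block, leaving out libraries and other member rules were tried as alternatives. Coordinates are those of the table, and sequences are from RefSeq GRCh38.p14 and GENCODE transcripts. Where cultures were not separate, p-values measure only the spread between these libraries. The deviations of same-numbered libraries from their group means correlated above 0.1 in all 3 pairs for 2 comparisons. These were parental cells with and without Dox/IAA (0.124 to 0.246) and the treated lines (0.101 to 0.138). All 12 libraries correlated best with their own number. By this hint from the data the numbers may pair the libraries in every comparison. The main p-values are from the fit without pairing, and a fit with the number as a block was run beside it.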

Additional observations from a re-analysis of the deposited data

Results flagged for a closer look

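In 11 members the response to Dox/IAA differed between SDS22-degron and parental cells by the interaction of the fit (adjusted p under 0.05). The log2 difference of the responses was -1.36 for RAB30-AS1, -1.32 for RP11-54H7.4, -0.86 for RP11-479G22.8, -0.72 for ELFN1-AS1, -0.70 for RP11-253E3.3 and -0.60 for MIR4435-2HG, each with the lower response in degron cells. It was 1.10 for RP11-284F21.9, 1.03 for LINC00511, 0.69 for RP11-11N9.4, 0.68 for EPB41L4A-AS1 and 0.33 for PVT1. RP11-253E3.3 was 13, 14.8 and 13.8 CPM and 12.4, 14.5 and 10.3 CPM in untreated and treated parental cells and 26.2, 23.2 and 24.4 CPM and 14.9, 12.6 and 12.9 CPM in degron cells. For RP11-253E3.3 and MIR4435-2HG the untreated degron libraries stood above all the others, and the treated degron libraries lay within or close to the parental range. The treated degron libraries of RP11-284F21.9 lay above every other library. The calls for RP11-479G22.8 (adjusted p = 0.0459) and RP11-11N9.4 (adjusted p = 0.0298) did not pass in 10 and 7 of the 12 fits that left out 1 library each, with adjusted p up to 0.145 and 0.08247. Those for PVT1 and MIR4435-2HG did not pass in 10 and 7 of them. Without both second treated libraries, 6 of the 11 calls did not pass: RP11-479G22.8 (adjusted p = 0.178), RP11-253E3.3 (0.0606), RP11-11N9.4 (0.0975), EPB41L4A-AS1 (0.0921), MIR4435-2HG (0.158) and PVT1 (0.0865). Under DESeq2 the calls for RP11-479G22.8 (0.0995) and MIR4435-2HG (0.0542) did not pass. That for EPB41L4A-AS1 was lost without the first untreated parental library (0.48, adjusted p = 0.0509) and with the GC correction (0.0569), and that for PVT1 with library size alone, without the filter on low counts and with the GC correction. RAB30-AS1, RP11-54H7.4, RP11-284F21.9, LINC00511 and ELFN1-AS1 passed in all 23 alternative fits. Dixon's criterion for a single outlying sample was not applied to groups of 3 libraries.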

How the results depend on the processing

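Of the 10 counts of called members, 227 of 258 alternative values lay within 1.5 times the main value, and of the 1144 alternative values for named members, 1109 kept their direction and their side of the threshold and 35 kept only their direction. No named member reversed. Of 129 alternative medians, 12 moved by more than the spread between libraries. With a minimum of 1000 counts (59 members), 19 were higher and 7 lower between the treated lines, 17 higher between the untreated lines, 14 rose and 20 fell on Dox/IAA in degron cells, and 6 rose in parental cells. Among the 60 members that overlap no counted row, the counts were 16 and 4, 16 and 2, 14 and 19, 6 and 9, and 1 and 3 in the order treated lines, untreated lines, degron cells, parental cells and interaction. Both rules count fewer members in the main fit, where the shares of all tested rows are unchanged. Those shares were 21.8% higher and 23.1% lower between the treated lines, and 13.2% and 15% between the untreated lines. They were 26.0% and 25.5% in degron cells, 15.9% and 15.7% in parental cells, and 6.03% and 8.35% for the interaction. Without the filter on low counts 13 members were lower between the untreated lines in place of 8. The GC correction alone gave 12 lower in parental cells, and 3 higher and 12 lower for the interaction. Combined with the replicate block, the GC correction gave 17 higher in parental cells and 15 lower for the interaction. The GC correction moved the median of all tested genes by up to 0.17 (log2). Without the second libraries of both treated groups, chosen after seeing the data, 2 members had a higher interaction, and 2 of 5 higher and 3 of 6 lower calls were kept. The cause of these shifts was not tested.

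Leaving out 1 library at a time gave 12 to 20 lower members in parental cells, and 2 to 5 higher for the interaction. With the replicate block 13 members were lower between the untreated lines, and the other counts stayed within 1.5 times. For the parental treatment and the treated lines the hint of pairing was clearest. There the block gave 12 higher and 23 lower, and 31 higher and 11 lower members, and it changed no call of a named member. In the other comparisons at least 1 of 3 same-numbered pairs had a correlation of 0.1 or less, although all 12 libraries correlated best with their own number. No fit of only the groups compared differs from the main one for the interaction. Members held as few as 4 counts in a library, and with a median standard error of 0.165 small differences were not detectable.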
